A study of Mus musculus with 15 samples.

Results

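Voltage-gated sodium channels open when a neuron depolarises and carry the inward current that starts and spreads the action potential. Each channel has 1 large alpha subunit that forms the pore and smaller beta subunits that set gating and surface level and act as adhesion proteins. In adult cortex the alpha subunit of Scn2a serves mainly excitatory neurons, that of Scn1a serves parvalbumin interneurons in particular, and that of Scn8a lies at axon initial segments and nodes. The genes described here are 4 alpha subunit genes, Scn1a, Scn2a, Scn3a and Scn8a, and 3 beta subunit genes, Scn2b, Scn3b and Scn4b, chosen by symbol. They are 7 of 54736 genes in the table, and all 7 were high enough to be tested.

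The study sequenced total RNA of medial prefrontal cortex from male C57BL/6 mice aged 8 to 10 weeks. Tissue was taken by micropunch, so each value mixes all cell types in the punch. The mice were Df(h15q13)/+ animals, which carry a heterozygous deletion on chromosome 7 that models the human 15q13 microdeletion, and their wild-type littermates, with no drug or other allele named in the labels. Libraries are titled WT (n = 7) and KO (n = 8), and KO stands here for the heterozygous deletion. The series' design text counts 7 Df(h15q13)/+ mice and 8 wild-type ones instead, and the titles were used here. Of 6 genes of the deleted interval 5 could be tested, and each was lower in all 8 KO libraries than in any WT library, for example Klf13 with a WT mean of 71.9 ± 8.17 TPM and a KO mean of 34.8 ± 2.96 TPM (SD; limma adjusted p = 2.04e-06). The tissue markers were those of cortex, with the excitatory neuron gene Slc17a7 at 1009 TPM in WT and the striatal gene Drd2 at 0.602 TPM. None of the 7 sodium channel genes lies on chromosome 7. TPM, the transcript abundance unit of the table, is a level scaled by transcript length and library total, so levels of different genes can be compared, but the depth behind each value is unknown.

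Scn1a, Scn2a and Scn3a lie close together on chromosome 2 (mm10). Scn3a (ENSMUSG00000057182) spans 65457118 to 65567627, Scn2a (ENSMUSG00000075318) spans 65620771 to 65767447 and Scn1a (ENSMUSG00000064329) spans 66270778 to 66440840. Scn8a (ENSMUSG00000023033) is on chromosome 15 at 100869858 to 101045938. The 3 beta subunit genes are on chromosome 9, with Scn3b (ENSMUSG00000049281) at 40269217 to 40291618, Scn2b (ENSMUSG00000070304) at 45117782 to 45130070 and Scn4b (ENSMUSG00000046480) at 45138395 to 45154152. Scn4b starts 8325 bases after the end of Scn2b on the same strand. The alpha subunit genes are paralogs, so reads from their shared stretches may be divided between them. Scn1a, Scn3a, Scn2b and Scn3b are each crossed by an annotated transcript on the other strand, of which Gm13630 across Scn1a has the highest level, a mean of 1.04 TPM.

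The promoters of Scn1a, Scn4b and Scn2b are shown because the first pair varied together across libraries, whereas Scn2b, the direct neighbour of Scn4b, did not vary with either of them past the test. Each covers 250 bases before and 50 after the RefSeq start (GRCm38.p6), 5′ to 3′ on the gene's strand, with every CG in capitals. The intervals are chr2:66440788-66441087 on the minus strand for Scn1a, chr9:45138374-45138673 on the plus strand for Scn4b and chr9:45117626-45117925 on the plus strand for Scn2b. RefSeq promoters were matched for 5 of the 7 genes. The RefSeq starts can differ from the gene spans given above. The Scn4b window begins at 45138374 and the annotated gene at 45138395, so most of this window lies within the gene.
Scn1a: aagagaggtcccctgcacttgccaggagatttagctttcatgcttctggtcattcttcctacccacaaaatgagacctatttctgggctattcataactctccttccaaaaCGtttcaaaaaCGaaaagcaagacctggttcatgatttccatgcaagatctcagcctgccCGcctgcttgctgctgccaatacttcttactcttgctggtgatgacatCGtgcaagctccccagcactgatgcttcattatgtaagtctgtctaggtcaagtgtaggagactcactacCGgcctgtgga
Scn4b: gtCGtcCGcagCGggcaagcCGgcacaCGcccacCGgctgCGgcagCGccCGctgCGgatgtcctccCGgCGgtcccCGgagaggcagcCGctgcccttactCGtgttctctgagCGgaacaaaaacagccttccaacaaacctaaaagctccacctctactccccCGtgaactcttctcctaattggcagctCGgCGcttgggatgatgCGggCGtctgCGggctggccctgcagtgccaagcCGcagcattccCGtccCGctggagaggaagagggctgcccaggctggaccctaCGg
Scn2b: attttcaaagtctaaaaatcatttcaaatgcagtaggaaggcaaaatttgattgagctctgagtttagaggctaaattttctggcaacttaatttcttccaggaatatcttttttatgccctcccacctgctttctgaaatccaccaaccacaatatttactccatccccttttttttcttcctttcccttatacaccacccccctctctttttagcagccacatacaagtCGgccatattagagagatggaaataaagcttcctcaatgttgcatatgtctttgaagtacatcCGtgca
The Scn4b window held 26 CG pairs at 66.3% GC, the Scn1a window 5 at 47.3% GC and the Scn2b window 2 at 38.3% GC. The median over 32851 RefSeq promoters was 7 CG pairs, 94.6% held at least 1, and 83.1% held fewer than Scn4b, 38.0% fewer than Scn1a and 14.1% fewer than Scn2b. Scn8a had 2 RefSeq starts, and the window at the upstream one (chr15:100870395-100870694) held 38 CG pairs. That window lies within the annotated Scn8a span, which begins at 100869858. These counts describe the windows and no mark on them was measured.

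Scn2a was the most abundant of the 7 genes in cortex and Scn4b the least abundant in WT. In TPM, a scale on which genes can be ranked, WT means ran from 125 ± 14.04 for Scn2a through 71.2 ± 9.32 for Scn2b, 70.5 ± 8.23 for Scn8a, 34.1 ± 4.31 for Scn1a, 27.9 ± 2.24 for Scn3b and 15.7 ± 1.65 for Scn3a to 11.6 ± 3.68 for Scn4b (SD, n = 7). Scn8a and Scn2b did not differ beyond their spread, with Scn8a the higher one in 3 of 7 WT and 4 of 8 KO libraries. Scn2a exceeded Scn8a in all 15 libraries. Scn1a exceeded Scn3b in all 7 WT libraries, whereas Scn3b was the higher one in 5 of 8 KO libraries, a difference in order that was not tested. Scn3a exceeded Scn4b in 6 of 7 WT and 6 of 8 KO libraries.

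**Figure D1:**
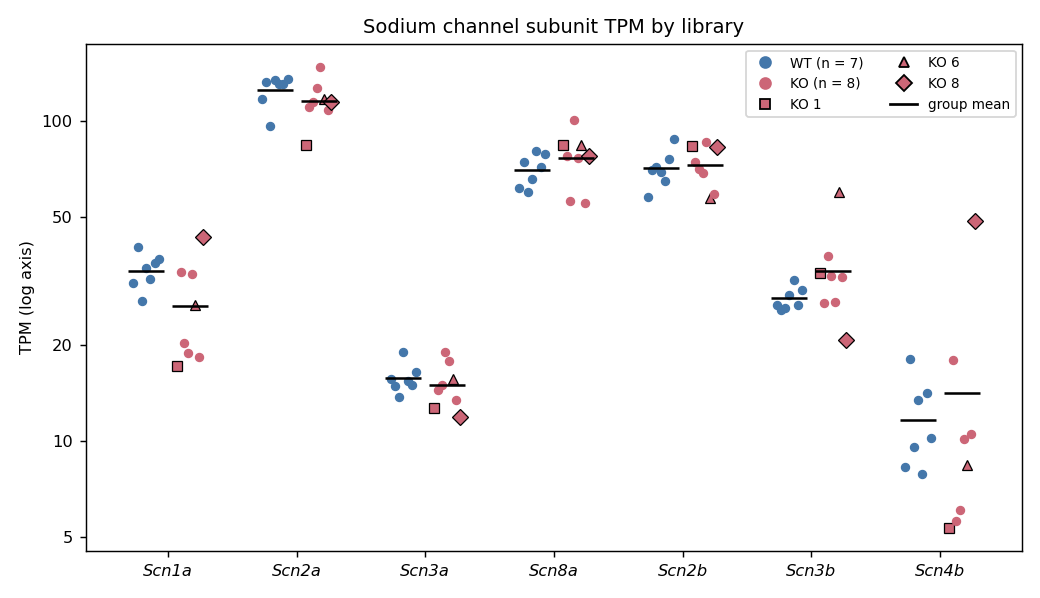
TPM of the 7 sodium channel subunit genes in each library on a log axis, with WT libraries in blue (n = 7), KO libraries in red (n = 8) and group means as black lines. Of the 8 KO libraries, 5 lie below all WT libraries for Scn1a, while KO 8 at 43.5 TPM lies above them, and KO 6 for Scn3b and KO 8 for Scn4b stand above the other KO libraries.

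No sodium channel gene passed the test between KO and WT cortex. Across all genes, 5 of 18656 (0.0268%) passed at an adjusted p under 0.05 (limma moderated test on log2(TPM + 1), Benjamini-Hochberg), all 5 from the deleted interval, and 0 of the 7 channel genes were among them. At an unadjusted limma p under 0.05, 1 of 7 counted, Scn1a, against 11.9% of all tested genes. With exact permutation of the group labels (two-sided, 6435 arrangements), 0 of 7 had a p under 0.05. The ranges of WT and KO overlapped for all 7 genes, and 0.134% of tested genes had groups that did not overlap. The median log2 difference of the 7 genes, KO minus WT, was -0.07, with 3 genes higher and 4 lower, and that of all tested genes was 0.02.

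Scn1a, whose product Nav1.1 is the main channel of fast-spiking interneurons, had the lowest p of the 7. WT libraries ranged from 27.3 to 40.4 TPM with a median of 34.8, and KO libraries from 17.2 to 43.5 TPM with a median of 23.4. KO 1, KO 3, KO 4, KO 6 and KO 7 were below every WT library, KO 2 and KO 5 were within the WT range, and KO 8 was above it. The KO mean of 26.4 ± 9.55 TPM (SD, n = 8) was 77.6% of the WT mean, a log2 difference of -0.42 ± 0.18 (SE; 95% interval -0.79 to -0.04; limma p = 0.0309, adjusted p = 0.388; exact permutation p = 0.0524). Without KO 8 the KO mean was 24.0 ± 7.15 TPM (SD, n = 7) and the log2 difference -0.53 (limma adjusted p = 0.196).

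Scn2a, the Nav1.2 gene of excitatory neurons, differed by less than the spread between libraries. WT libraries ranged from 96.6 to 135 TPM with a median of 131, and KO libraries from 84.3 to 147 TPM with a median of 115. The lowest value was that of KO 1 and the highest that of KO 5, and in WT the library WT 3 lay below the other 6. The log2 difference was -0.12 ± 0.10 (SE; 95% interval -0.33 to 0.09; limma adjusted p = 0.604), and it was -0.06 without KO 1 and -0.18 without WT 3. In Scn3a, the Nav1.3 gene that is most active before birth, WT libraries ranged from 13.7 to 18.9 TPM and KO libraries from 11.9 to 18.9 TPM, with medians of 15.4 and 14.7. Its log2 difference was -0.08 ± 0.09 (SE; 95% interval -0.28 to 0.13; limma adjusted p = 0.736), and it turned to 0.01 without KO 1 and KO 8, a pair of libraries with high myelin gene levels. Leaving out KO 4 gave -0.12 for Scn3a, KO 1 -0.05, and WT 4 or KO 8 -0.03.

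Scn8a, the Nav1.6 gene, had a slightly higher KO mean. WT libraries ranged from 59.9 to 80.7 TPM with a median of 71.7, and KO libraries from 55.4 to 100.96 TPM with a median of 77.8. KO 4 had the highest value, KO 1 and KO 6 were also above all WT libraries, and KO 3 and KO 7 were below all of them. The log2 difference was 0.10 ± 0.12 (SE; 95% interval -0.15 to 0.35; limma adjusted p = 0.718). It was 0.04 without KO 4 and 0.06 without WT 3, and 0.16 without KO 3 or without KO 7.

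None of the 3 beta subunit genes passed the test either. Scn2b, whose product is linked to alpha subunits by a disulfide bond, ranged from 58.0 to 87.9 TPM in WT and from 57.6 to 86.2 TPM in KO, with medians of 70.1 and 72.6. Its log2 difference of 0.03 ± 0.10 (SE; 95% interval -0.18 to 0.24; limma adjusted p = 0.906) turned to -0.04 without KO 1 and KO 8, and it ran from -0.02 without WT 1 to 0.08 without WT 7. Scn3b, whose product binds alpha subunits without such a bond, ranged from 25.7 to 31.8 TPM in WT with a median of 26.7 and from 20.6 to 59.9 TPM in KO with a median of 32.7. KO 6 was the highest and KO 8 the lowest, and 5 of 8 KO libraries were above all WT libraries. The log2 difference was 0.22 ± 0.16 (SE; 95% interval -0.11 to 0.55; limma adjusted p = 0.554), and without KO 6 it was 0.09, with a KO mean of 30.2 ± 5.65 TPM (SD, n = 7).

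Scn4b, whose product is disulfide-linked as well and is known for the resurgent current of fast-firing neurons, varied more between libraries than any of the other 6 genes. WT libraries ranged from 7.90 to 18.0 TPM with a median of 10.2, and KO libraries from 5.35 to 48.5 TPM with a median of 9.29. KO 8 alone was above the WT range, while KO 1, KO 3 and KO 4 were below it. The KO mean of 14.1 ± 14.5 TPM was above the WT mean of 11.6 ± 3.68 TPM (SD), yet the log2 difference was -0.07 ± 0.36 (SE; 95% interval -0.83 to 0.69; limma adjusted p = 0.945). Without KO 8 the KO mean was 9.16 ± 4.42 TPM (SD, n = 7) and the log2 difference -0.37, and without KO 1, KO 3, KO 4 or WT 2 the log2 difference was above 0, at 0.06, 0.05, 0.03 and 0.04.

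The spread of log2(TPM + 1) was wider in KO than in WT libraries for each of the 7 genes. It was widest for Scn4b, with an SD of 0.404 in WT and 0.993 in KO. For Scn1a it was 0.181 and 0.482, and for Scn3b 0.110 and 0.434. For the other 4 genes the SD was between 0.137 and 0.184 in WT and between 0.216 and 0.291 in KO. Within groups, the pooled SD of Scn4b was larger than that of 98.4% of the 1000 tested genes nearest to it in level, and the shares were 93.5% for Scn1a, 89.8% for Scn3b and 45.3% for Scn3a. These are descriptions, and the difference in spread was not tested.

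Shares of the alpha subunit transcripts had a wider spread in KO than in WT for all 4 genes, a difference that was not tested. Scn2a held 51.0 ± 1.29% of the summed TPM of the 4 alpha genes in WT, Scn8a 28.7 ± 1.79%, Scn1a 13.9 ± 0.88% and Scn3a 6.43 ± 0.67% (SD, n = 7). In KO the Scn2a share was 49.5 ± 4.81%, that of Scn8a 32.8 ± 5.34%, that of Scn1a 11.2 ± 3.36% and that of Scn3a 6.42 ± 0.77% (SD, n = 8). The Scn8a share reached 42.4% in KO 1, against a WT range of 26.0% to 31.2%. The Scn1a share ranged from 7.08% in KO 4 to 17.6% in KO 8, against 12.4% to 15.4% in WT. Summed alpha TPM was 246 ± 25.2 in WT and 234 ± 30.5 in KO, and summed TPM of the 3 beta genes was 111 ± 10.8 in WT and 121 ± 15.01 in KO (SD).

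**Figure D2:**
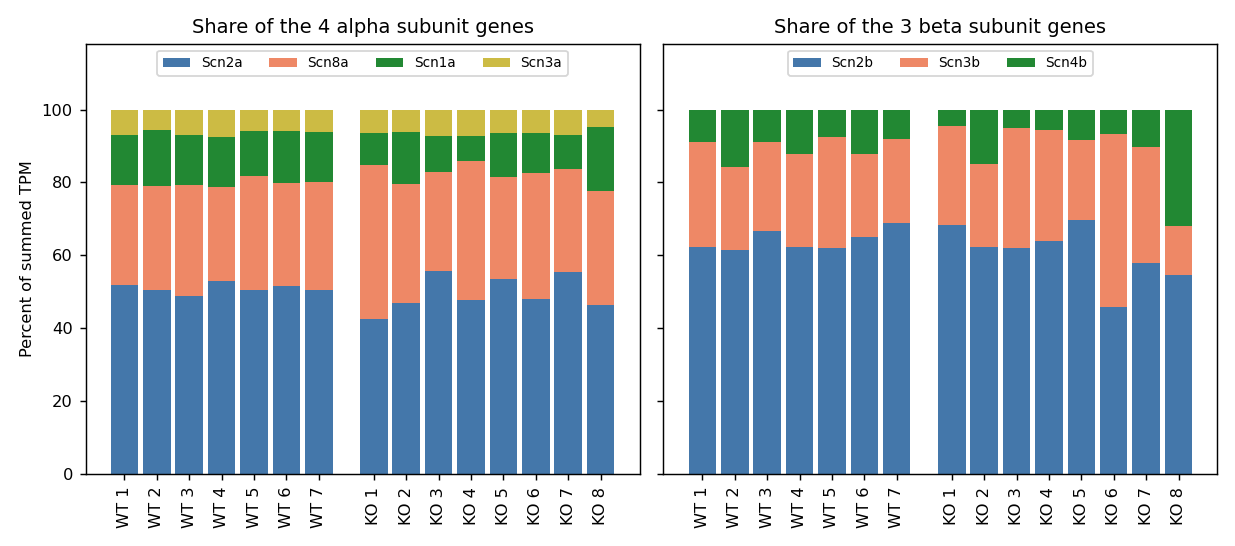
Share of each gene in the summed TPM of the 4 alpha subunit genes (left) and of the 3 beta subunit genes (right), in percent, with 1 bar per library. WT bars are nearly alike on the left, whereas KO 1 has the highest Scn8a share at 42.4%, and on the right Scn3b makes up 47.6% in KO 6 and Scn4b 31.9% in KO 8.

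Ratios of subunit genes within a library do not depend on its total other than through the pseudocount. Of 4 log2 ratios tested by an exact two-sided permutation test, with adjustment over the 4, none passed. Scn1a over Scn2a, the interneuron against the excitatory neuron subunit, was -1.85 ± 0.10 in WT and -2.14 ± 0.44 in KO (SD), a difference of -0.30 ± 0.16 (SE; exact p = 0.104, adjusted p = 0.275). Only KO 2 and KO 8 were above the WT mean. The call changed when KO 8 was left out, with a difference of -0.40 (exact p = 0.00991, adjusted p = 0.0396). Over all 15 libraries left out in turn, the permutation adjusted p ran from 0.0396 to 0.505. In 7 other settings it ran from 0.0583 to 0.292, and leaving out both KO 1 and KO 8, 1 of these, gave a difference of -0.41. Scn8a over Scn2a was -0.82 ± 0.12 in WT and -0.60 ± 0.35 in KO (SD), a difference of 0.22 ± 0.13 (SE; exact p = 0.137, adjusted p = 0.275), which was 0.14 without KO 1. The difference was 0.05 ± 0.08 for Scn3a over Scn2a and -0.10 ± 0.37 for Scn4b over Scn2b (SE; exact permutation, adjusted p = 0.749 and 0.815). With 1 library left out they ran from 0.01 to 0.09 and from -0.37 to 0.06, with KO 1 left out at one end and KO 8 at the other in both.

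Scn1a and Scn4b varied together across libraries. Both were lowest in KO 1 and highest in KO 8, and among WT libraries both were highest in WT 2. After removal of the group means, Pearson's r over 15 libraries was 0.83 (permutation p = 0.00059, adjusted over 21 pairs 0.0124) and Spearman's rho 0.75 (permutation p = 0.00666, adjusted p = 0.0699). It was 0.68 without KO 8 and KO 1, which are also the libraries farthest from the median, and no longer passed (permutation adjusted p = 0.233), while r was 0.74 within WT and 0.85 within KO libraries. It was the single pair of 21 that passed.

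Next came Scn2a with Scn3a, at an r of 0.69 (permutation p = 0.00863, adjusted p = 0.0906), a rho of 0.72 (permutation p = 0.00443, adjusted p = 0.0699) and an r of 0.64 without KO 1 and WT 3. Scn3b went the other way from Scn4b, at an r of -0.64 (permutation p = 0.0777, adjusted p = 0.383) and a rho of -0.70 (permutation p = 0.0107, adjusted p = 0.0752). The r of Scn3b with Scn4b was -0.63 without KO 6 and KO 8, and -0.41 without KO 1 and KO 8 (permutation adjusted p = 0.636). Scn2b with Scn3b had an r of -0.53 (permutation p = 0.0582, adjusted p = 0.383) and a rho of -0.39 (permutation p = 0.186, adjusted p = 0.453), with an r of -0.48 without WT 7 and KO 6, and Scn1a with Scn2a had an r of 0.50 (permutation p = 0.0911, adjusted p = 0.383) and a rho of 0.40 (permutation p = 0.168, adjusted p = 0.453), with an r of 0.48 without KO 8 and KO 1. The other 16 pairs had r between -0.45 and 0.38, with adjusted permutation p-values of at least 0.646.

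**Figure D3:**
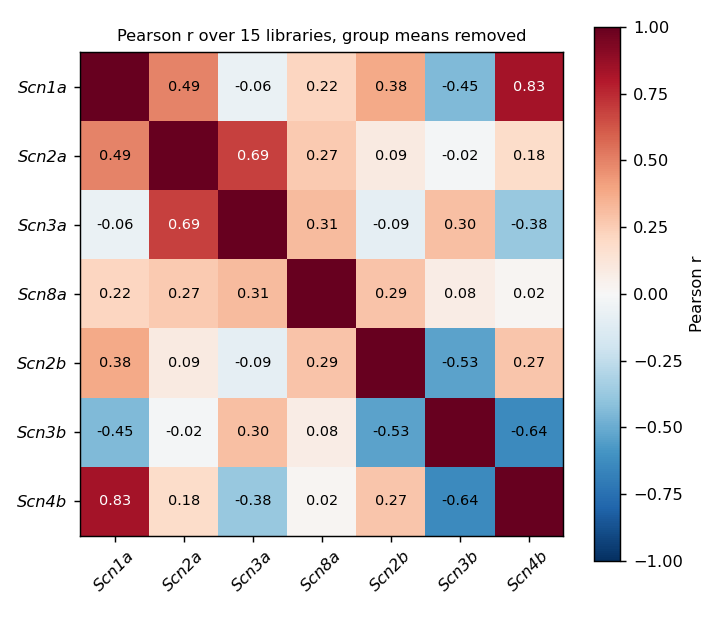
Pearson's r between the 7 genes over 15 libraries, computed on log2(TPM + 1) after the group means were removed, with blue for negative and red for positive values. Scn1a with Scn4b at 0.83 and Scn2a with Scn3a at 0.69 stand out as the highest values, and Scn3b with Scn4b at -0.64 as the lowest.

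Likeness to Scn4b across the libraries was highest for 3 genes of axons and synapses, named by a rule on r. Ranked by r among 18649 genes outside the 7, the first 3 were Vamp1, a synaptic vesicle fusion gene, at 0.98, Nefh, the heavy neurofilament gene, at 0.96 and Cplx1, a complexin gene of fast transmitter release, at 0.96. Their rho values were 0.97, 0.88 and 0.94, and without KO 1 and KO 8 their r values were 0.95, 0.90 and 0.92. Of the 6 fast-spiking interneuron markers, the synaptotagmin gene Syt2 ranked 9th with an r of 0.93, the potassium channel gene Kcnc1 10th with 0.92 and the calcium buffer gene Pvalb 31st with 0.86, while Gad1 was 194th, Kcnc2 810th and Tac1 5223rd. The 8 pan-neuronal markers ranked from 88th to 7856th for Scn4b, the first at 88th and 103rd and so ahead of Gad1. The 6 cortical excitatory markers ranked from 3710th to 8071st, the 5 tested striatal markers from 680th to 18158th and the 6 myelin markers from 841st to 2243rd. Ranks were 1037th to 17151st for the oligodendrocyte precursor list, 1697th to 16210th for the astrocyte list and 2464th to 14385th for the endothelial list. All these values come from the same 15 libraries, which share their totals and their tissue makeup, and are given as descriptions.

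For Scn1a the 3 genes most alike were Adcy1, an adenylyl cyclase gene, at 0.91, Nos1ap, an adaptor of neuronal nitric oxide synthase, at 0.89 and Kif5c, a kinesin gene, at 0.89. Kcnc1 ranked 37th for Scn1a, Syt2 86th, Kcnc2 186th, Pvalb 244th, Gad1 1141st and Tac1 2697th. Pan-neuronal markers ranked from 523rd to 10154th for Scn1a, and 3 of the 8 were ahead of Gad1. So were 1 astrocyte marker, at 741st, and 1 oligodendrocyte precursor marker, at 1025th. The cortical excitatory, striatal, myelin and endothelial lists began at 3948th, 3847th, 3967th and 3364th. Among the genes most like Scn2a were Rbm27 at 0.97 and Cpsf6, an RNA cleavage factor gene, at 0.96, and Pvalb ranked 8567th for it. Scn3a was most like Rfx3, a transcription factor gene, at 0.94, the glutamate receptor gene Grm5 at 0.93 and Avl9 at 0.91. The likeness was lower for Scn8a, with Ccl25 at 0.84, Meaf6 at 0.83 and Lrrc8a at 0.83, and for Scn3b, with Gm28551 at 0.85, Nup188 at 0.85 and Mylk at 0.83. For Scn2b it was highest with 3 genes without a given function, Gm9247 at 0.89, Gm2719 at 0.88 and AC168050.2 at 0.87.

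The group values of the 6 fast-spiking interneuron markers are given beside those of Scn1a and Scn4b. Of the 6 markers 5 were lower in KO and 1 was higher, 2 of them lower at an unadjusted limma p under 0.05 against 6.21% of all tested genes, and 0 passed. Their summed level was 324 to 394 TPM in WT and 260 to 425 TPM in KO, with the lowest sum in KO 1 and the highest in KO 8. Gad1 and Tac1 are not limited to fast-spiking cells. Gad1 gave the largest part of that sum, with means of 163 TPM in WT and 141 TPM in KO. Pvalb itself ranged from 27.2 to 52.2 TPM in WT and from 16.7 to 70.5 TPM in KO, with a log2 difference of -0.44 ± 0.25 (SE; limma adjusted p = 0.484), and Syt2 had -0.76 ± 0.30 (adjusted p = 0.377). No marker of this list was at 0 in any library. In such bulk tissue, fewer cells of a type and less RNA per cell cannot be told apart, and the part of the interneuron markers in the values of Scn1a and Scn4b was not tested. The 6 striatal markers summed to 78.4 to 104 TPM in WT and 83.1 to 121 TPM in KO. Their sum was 121 TPM in KO 1, where Scn4b was lowest, and 118.3 TPM in KO 8, where Scn4b was highest, and their part in the values of Scn4b was not tested.

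**Figure D4:**
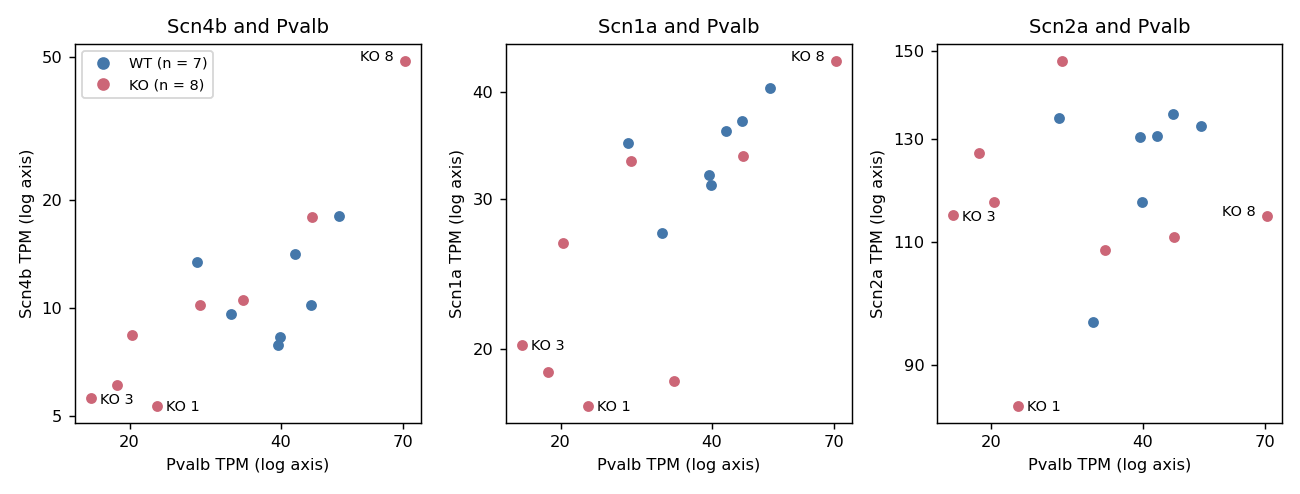
TPM of Scn4b, Scn1a and Scn2a against TPM of Pvalb in each library, all on log axes, with WT libraries in blue (n = 7) and KO libraries in red (n = 8). KO 8 lies at the top right for Scn4b and Scn1a, KO 1 and KO 3 lie at the lower left, and Scn2a shows no such order.

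KO 1 and KO 8 stood apart in other respects too. Summed TPM of 6 myelin genes reached 833 for KO 1 and 1260 for KO 8, while WT libraries had 369 to 504 and the other KO libraries 253 to 382, and Scn1a and Scn4b were at opposite ends in these 2 libraries. The 8 pan-neuronal markers summed to 4918 to 5932 TPM in WT and 4634 to 6423 TPM in KO, with KO 8 the highest. Their part in the sodium channel values was not tested. Mitochondrial genes held 18.9% to 26.0% of a library's TPM, with KO 1 the lowest. Without both KO 1 and KO 8 the log2 difference of Scn1a stayed negative and 0 of the 7 genes passed, the lowest adjusted p being 0.323 for Scn1a (limma).

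Other sodium channel subunit genes described here were low in cortex. Scn7a, which encodes an atypical sodium-sensing channel, had means of 2.88 ± 0.309 TPM for WT and 3.60 ± 1.58 TPM for KO, and Scn9a, best known from pain-sensing neurons, 2.48 ± 0.310 and 2.78 ± 0.614 TPM (SD). Their log2 differences were 0.19 ± 0.17 and 0.11 ± 0.10 (SE; limma adjusted p = 0.634 and 0.662). Without KO 4 they were 0.07 and 0.05, for Scn7a it was 0.11 without KO 5, and for Scn9a 0.07 without WT 5. The transcript Gm13629 crosses Scn9a on the other strand at a mean of 3.79 TPM, and without a stated strand setting the reads of this pair cannot be told apart. Scn10a and Scn11a had no value above 0.0363 TPM in any library, and the muscle gene Scn4a was listed at 0 in all 15.

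Partners of the channels showed values in both directions and none passed. Of 18 partner genes, which anchor, modulate or turn over the channels, 9 were higher and 9 lower, with a median log2 difference of -0.0015, and 1 was higher at an unadjusted limma p under 0.05, against 5.68% of all tested genes. That was Calm3, a calmodulin gene, with means of 887 ± 55.9 TPM for WT and 992 ± 108 TPM for KO (SD), a log2 difference of 0.16 ± 0.07 (SE; limma adjusted p = 0.401). Tnr, which encodes the matrix protein tenascin-R, had -0.23 ± 0.11 (adjusted p = 0.425), and Fgf13, a fibroblast growth factor homologous factor that binds alpha subunits, had -0.19 ± 0.11 (adjusted p = 0.466). The Fgf13 value was -0.08 without WT 4, which stood at 127 TPM while the other WT libraries had 68.9 to 77.6 TPM.

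No gene of the sodium leak channel or the sodium pump passed. Of 9 genes of the sodium leak channel and the sodium pump, 7 were lower and 2 higher, 4 of them lower at an unadjusted limma p under 0.05 against 6.21% of all tested genes, and 0 passed. Atp1b2, a pump subunit gene that astrocytes express strongly, had means of 264 ± 23.6 TPM for WT and 227 ± 32.1 TPM for KO (SD) and a log2 difference of -0.23 ± 0.09 (SE; limma adjusted p = 0.377). KO values of Atp1b2 were below the WT range in 6 of 8 libraries. Beside it, 5 of 6 astrocyte markers had lower KO values, 4 with an unadjusted limma p under 0.05, against 6.21% of all tested genes. The astrocyte list had summed TPM of 789 to 1196 in WT and 647 to 995 in KO, no marker at 0, and 0 passing. Beyond these, each of 6 endothelial markers had a lower KO value, 5 with an unadjusted limma p under 0.05, against the same 6.21%, and 0 passed. The endothelial list summed to 81.4 to 107 TPM for WT and 48.3 to 89.4 TPM for KO. Of 6 oligodendrocyte precursor markers, 5 were lower and 1 higher, 3 of them lower at an unadjusted limma p under 0.05, and 0 passed. Among all 18656 tested genes, 8444 were lower in KO. The part of these lists in the pump values was not tested.

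**Figure D5:**
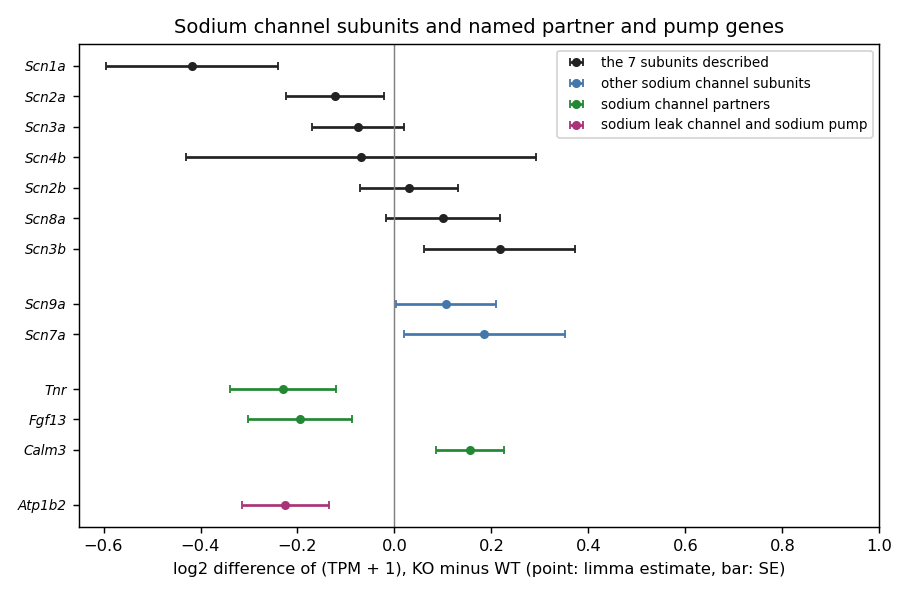
Log2 differences of TPM + 1, KO minus WT, from limma for the 7 subunit genes, Scn7a, Scn9a, the partner genes Calm3, Tnr and Fgf13, and the pump gene Atp1b2, with points for estimates and bars for SE. Scn1a at -0.42 lies farthest to the left and Scn4b has the widest bar, with an SE of 0.36.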

How the data were processed

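Total RNA of 15 libraries was sequenced on a BGISEQ-500. The authors deposited TPM values per Ensembl gene ID, and the submitters' processing notes name StringTie, HISAT2 and Trimmomatic and the mm10 build. Their versions, the strand setting and the annotation are not stated in what was used here. TPM keeps no read depth, so the only error known is that between libraries. Of 54838 rows, 54723 matched a GENCODE M21 symbol, and rows that share a symbol were summed. The table's 2 unnamed columns were not used. Genes whose mean over libraries was 1 TPM or more were fitted as log2(TPM + 1), which understates changes of low genes, in limma 3.58.1 (R 4.3.3) with an intensity trend, and p-values were adjusted over 18656 genes. The fit was tested on simulated data. Single values were compared by an exact permutation test, and correlations by 100000 permutations within groups, after removal of group means. Libraries were grouped by title, and nothing but the series' animal numbers says that each is 1 mouse, so p-values measure the spread between libraries. Named were the 7 genes, other subunit genes, the genes of lowest p (up to 3) in the partner list and in the leak channel and pump list, and the genes most alike to each of the 7 (up to 3); some genes these rules pick are not reported here. Gm13629, Gm13630 and single markers were named after their values were seen. The members, lists and tests were chosen with earlier results of these data known. Alternatives were other pseudocounts, filters, scalings, variance priors and weights, a replicate block, and libraries left out.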

Additional observations from a re-analysis of the deposited data

Results flagged for a closer look

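In 48 sets of values, each a gene or ratio within 1 group on 1 scale, the highest or lowest library was compared with the nearest other one, and 3 stood far apart; chance gives about 1 in 20 such sets, and the sets are not independent. Scn4b in KO 8 was at 48.5 TPM, with KO 2 nearest at 18.0 TPM, a gap of 0.708 of the range of the KO libraries. Scn3b in KO 6 was at 59.9 TPM, with KO 3 nearest at 37.8 TPM, a gap of 0.562 of the range. On the log2(TPM + 1) scale neither was that far apart. Scn2a in WT 3 was at 6.61 on the log2(TPM + 1) scale, with WT 1 nearest at 6.89, a gap of 0.577 of the range, and the WT mean without WT 3 was 130 ± 6.57 TPM (SD, n = 6).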

How the results depend on the processing

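Across 28 alternatives 0 of the 7 genes passed the limma test, the lowest adjusted p being 0.145 for Scn1a with a replicate block, in which KO 8 has no partner and does not enter the difference. The genes called numbered 5 as reported, 4 to 6 in the other settings and 8 with the replicate block. Same-numbered libraries, which the labels do not state to be paired, deviated together by r from -0.04 to 0.12. An r taken over all tested genes cannot decide whether they share a litter or a batch. Left-out libraries gave log2 differences of -0.53 to -0.34 for Scn1a, -0.016 to 0.082 for Scn2b and -0.37 to 0.057 for Scn4b, and ratio differences of -0.40 to -0.22 for Scn1a over Scn2a and -0.37 to 0.056 for Scn4b over Scn2b. Without KO 1 and KO 8, Scn3a was at 0.008 and Scn2b at -0.037. Of the 21 pairs, 1 passed as reported and 0 without KO 1 and KO 8, within WT or within KO; the r of Scn1a and Scn4b was then 0.68, 0.74 and 0.85. Scn2b with Scn3b had an r of 0.13 within WT. The causes were not tested. With no depth in TPM, no counting error can be given.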
